A study of Mus musculus with 36 samples.

Results

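The response of mouse macrophages to dexamethasone, a synthetic glucocorticoid, was measured by comparing the 3 arrays labelled MΦ_M2c with the 3 arrays labelled MΦ_M0, chosen by their titles, so 6 of the 36 arrays of the study. Both groups started from sorted bone-marrow monocytes (CD11b+, Ly6C+, Ly6G-) and were grown in RPMI with 10% FCS and 20 ng/ml M-CSF, the growth factor that drives monocytes to macrophages. The M2c cells received 1e-07 M dexamethasone for the last 24 h of a culture that ended on day 7, and the M0 cells received no stimulus. The same M-CSF cultures were also given 20 ng/ml IL-4 (M2a), 25 ng/ml IFN-γ, IFN-γ with LPS (M1), or IFN-γ on a coat of human immunoglobulin (M2b), with 3 arrays each. The labels name no strain, sex or age and give no vehicle for M0. Nothing in them ties the 3 arrays of a group to separate mice, so the p-values below measure only spread between arrays. For each gene that spread was estimated within the groups of all 36 arrays, not from the compared arrays alone.

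Glucocorticoids bind the glucocorticoid receptor, a nuclear receptor held ready by HSP90 and its co-chaperones. The bound receptor enters the nucleus, where it raises transcription at its own DNA elements and lowers transcription of many genes driven by NF-κB and AP-1. In macrophages it is known for turning down inflammatory cytokines and for raising genes of scavenging and of the uptake of dying cells. The state it gives is often called M2c, to set it apart from the M2a state that IL-4 gives.

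Each array gave 1 intensity per probe, which was set on a log2 scale relative to the 75th percentile of its array, so a value of 0 is a probe at that percentile. On the 6 arrays, 53.9% to 57.7% of probes were well above background by the scanner's flag, and the 75th percentile lay between 531 and 596. Arrays of a group correlated at 0.991 to 0.992 (dexamethasone) and 0.991 to 0.993 (no stimulus), against 0.972 to 0.981 between the groups, across genes. The median SD over the 3 arrays was 0.13 log2 with dexamethasone and 0.11 without, over the 13868 genes above background on all 6. Dexamethasone array 2 stood apart on 1 class of probes, described below. The 2 groups shared no slide, so slide and stimulus cannot be told apart beyond treating slide as a random effect. In RNA of whole cultures, fewer cells of a type and less RNA per cell cannot be told apart.

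Dexamethasone changed 3597 of 17605 genes at an adjusted p under 0.05 (20.4%; limma with Benjamini-Hochberg adjustment); 1 of the 17605, Mchr1, is counted in the total but had no estimate after outlier spots were left out. Of the genes called, 1831 were higher (10.4%) and 1766 lower (10%), and the median over all genes was 0.03 log2. At least a 2-fold rise was called for 648 genes (3.68%) and at least a 2-fold fall for 696 (3.95%). The 3 dexamethasone arrays lay wholly above or below the 3 unstimulated ones in 7625 genes (43.3%).

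**Figure D1:**
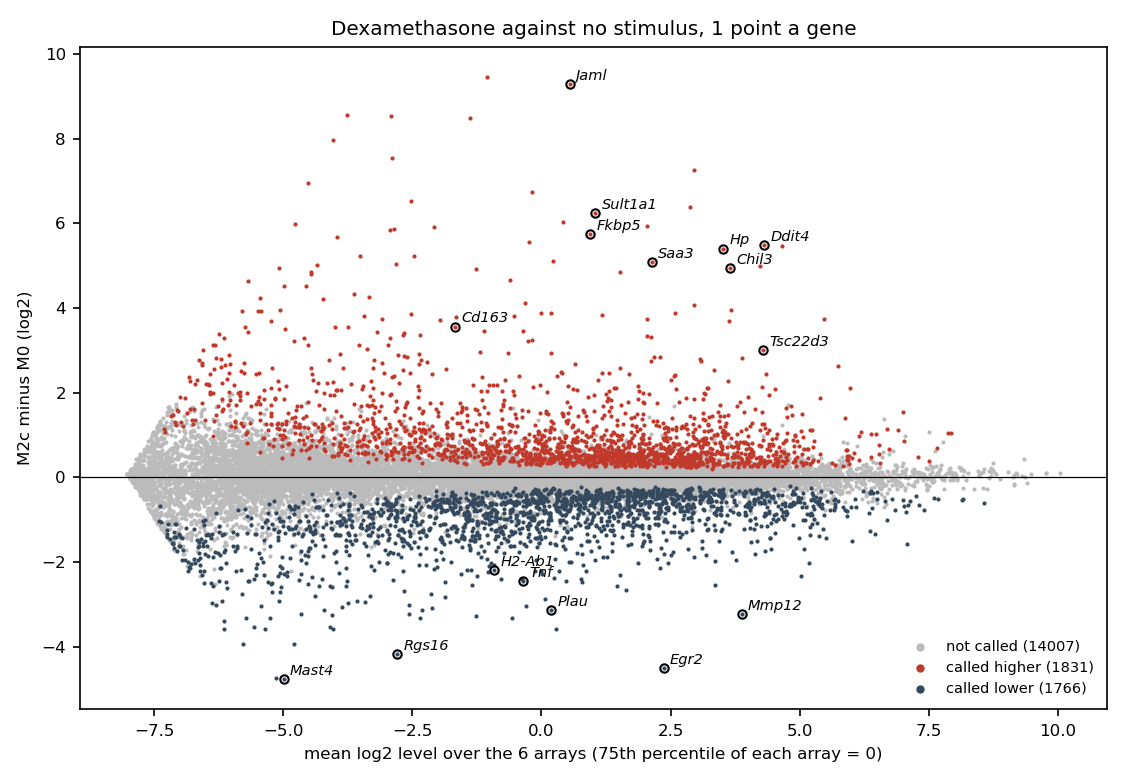
Each point is a gene with an estimate in this comparison, placed by its mean level over the 6 arrays on the x axis (log2 relative to the 75th percentile of the array) and the log2 difference, dexamethasone minus no stimulus, on the y axis. Genes called higher (1831) and lower (1766) are coloured, and the labelled gene highest on the plot is Jaml, with a difference of 9.29; the unlabelled point above it is a probe target without a gene symbol.

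Jaml, which encodes a junctional adhesion molecule of leukocytes, showed the largest rise among genes with a symbol. It read 5.30, 5.33 and 4.95 on dexamethasone arrays 1, 2 and 3 and -3.60, -4.06 and -4.63 on the unstimulated arrays. The groups lay far apart, with a difference of 9.29 ± 0.38 log2 (SE), or 626-fold (adjusted p = 2.2e-15). Its single probe lies on chromosome 9 from 44858398 to 44858457 (mm8, plus strand).

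Sult1a1, a sulfotransferase that conjugates phenols and hormones, read 4.13, 4.24 and 4.09 against -1.69, -2.12 and -2.43, a 75.3-fold rise (6.23 ± 0.38 log2, adjusted p = 5.3e-12). Its dexamethasone arrays were within 0.2 log2 of each other and none came near the unstimulated ones. Ms4a8a, a four-pass membrane protein, was not above background on any unstimulated array. In such cases the fold is a bound, taken against the lowest spot signal flagged above background on the dim arrays, or the gene's own signal if higher. Here and below, "at least" refers to that level under the scanner's background correction. It is not a minimum under other corrections, which can give smaller differences. By this measure Ms4a8a was at least 75.8-fold higher (adjusted p of the fit 4.8e-15). Mrap, an accessory protein of the ACTH receptor, read 0.89, 0.71 and 0.58 with dexamethasone and was above background on 1 unstimulated array. Its fitted difference of 6.53 ± 0.56 log2 therefore rests partly on signal near background.

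Dnah2, an axonemal dynein chain, differed by 6.04 ± 0.40 log2 on 1 probe, while its second probe was below background on all 6 arrays. Slc4a8, a bicarbonate transporter, differed by 5.83, 3.48 and 0.18 log2 on its 3 probes, so the probes disagree. Strip2, a striatin-interacting protein, was at least 15.4-fold higher (adjusted p of the fit 6.7e-07). Another background correction (normexp), which lifts dim signals, gave smaller differences that still passed: 3.31 log2 for Ms4a8a, 2.97 for Mrap, 2.58 for Slc4a8 and 1.12 for Strip2. Fkbp5 was also among the 12 largest rises. The other 4, Adamts20, Hoxd13, Itgb3 and Cyp4x1, were read by probes with a shared sequence feature that is shown next.

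Egr2, an early growth response transcription factor, led the measured falls. It read 0.70, -0.15 and -0.22 with dexamethasone against 4.77, 4.51 and 4.57 without, so every treated array lay below every control. The difference was -4.51 ± 0.51 log2, 22.8-fold lower (adjusted p = 2.9e-07), on a probe at chromosome 10 from 66937367 to 66937426 (mm8, plus strand). Rgs16, which speeds the shutdown of G proteins, fell by 4.18 on the log2 scale (18.1-fold, adjusted p = 8.1e-07).

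For 7 of the 12 largest falls the signal left the measurable range on every dexamethasone array. Mast4, a kinase, was at least 8.22-fold lower (adjusted p = 1.9e-11) and Jsrp1, known from muscle, at least 7.39-fold lower. Tmem178, a membrane protein of the endoplasmic reticulum, was at least 7.15-fold lower. F3, tissue factor, was at least 4.26-fold lower, and its second probe differed by -3.87 log2. The bounds were 3.63-fold for Cd276 (B7-H3), 3.56-fold for Bcat1, a branched-chain aminotransferase, and 2.44-fold for Upb1 of pyrimidine breakdown. The second probe of Bcat1 was below background throughout, and so was 1 of the 2 other Mast4 probes, while the third was above it on 1 unstimulated array only. Nanos1 (-3.58 log2) and Tnip3, a partner of the brake A20 (-3.53 log2), were above background on 1 dexamethasone array each. With normexp these falls were smaller, -1.55 log2 for Mast4, -1.47 for Jsrp1 and -1.44 for Tmem178, and Bcat1 lost its call (-1.05, adjusted p = 0.056).

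Probes that hold a run of alternating G and T read higher with dexamethasone far more often than other probes, a feature found after the values were seen. Of 23033 probes whose longest run was 4 bases or shorter, 1.82% were higher by more than 1.5 log2. The share was 6.40% of 250 probes with a run of 7, 22.6% of 62 with 8, 52.0% of 25 with 9 and 95.5% of 22 with 10 to 14. Of 10 probes with a run of 10 to 17 alternating C and A, none was higher by that much and 2 (20.0%) were lower by more than 1.5 log2, beside 1.85% of probes with C and A runs of at most 4. Below are 30-base windows of probes with and without a long G and T run, written 5′ to 3′ in the probe's sense. The longest G and T run is in capitals. They are shown because the named rises of Adamts20, Cyp4x1, Hoxd13 and Itgb3 were read from probes with such a run.

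Adamts20: aagagagacaagtgtggaGTGTGTGgtggt
Cyp4x1: tgcataaataaTGTGTGTGTGcactcttag
Hoxd13: tatttttgtagatacaGTGTGTGTGagcag
Itgb3, probe used: aggacaattTGTGTGTGTGTGTatgggtgg
Itgb3, second probe: aacatcagagtcttTGTccatttttggttg
Junb: agatgtgttTGTGTGTGTGTGTttgacttt

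The Adamts20 window lies at chr15:94172170-94172199 on the minus strand, that of Cyp4x1 at chr4:114604321-114604350 (minus) and that of Hoxd13 at chr2:74472060-74472089 (plus). The second Itgb3 probe lies at chr11:104486455-104486484 (plus) and the Junb window at chr8:87867057-87867086 (minus), all mm8 as deposited.

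Itgb3, the β3 integrin subunit, read 6.90, 4.37 and 6.95 against -0.31, -0.28 and -0.34 on its run probe, a difference of 6.39 ± 0.42 log2. On its second probe, with a run of 3, it differed by -2.34 ± 0.65 log2 (adjusted p = 0.011), so the 2 probes of this gene go opposite ways. Junb, an AP-1 subunit, differed by 1.91 log2 on the run probe and by 0.01 on the other.

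Among 20 genes with a risen run probe and another probe above background on all 6 arrays, the run probes had a median of 3.16 log2 and the 31 other probes a median of 0.18. Of those 31, 9 were higher and 2 lower at the threshold. Dexamethasone array 2 read lower than arrays 1 and 3 on these probes. The median of the 22 probes with the longest runs, against the M0 mean, was 4.50, 2.98 and 4.38 on the 3 dexamethasone arrays, and 0.05, 0.06 and -0.09 on the M0 arrays. It was 0.62, 0.27 and 0.11 on the IFN-γ arrays, which share the slides of the dexamethasone arrays, and 2.02, 2.06 and 2.25 on the M1 arrays. A run of 7 or more is in the probe of 244 genes, 68 of them called higher and 19 lower, and in 52 of the 648 rises of at least 2-fold. It is in 19 of the 50 largest rises among genes above background on all 3 dexamethasone arrays. Leaving such probes out, an alternative chosen after seeing the data, gave 3519 called genes. The part the run plays in the signal was not tested.

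**Figure D2:**
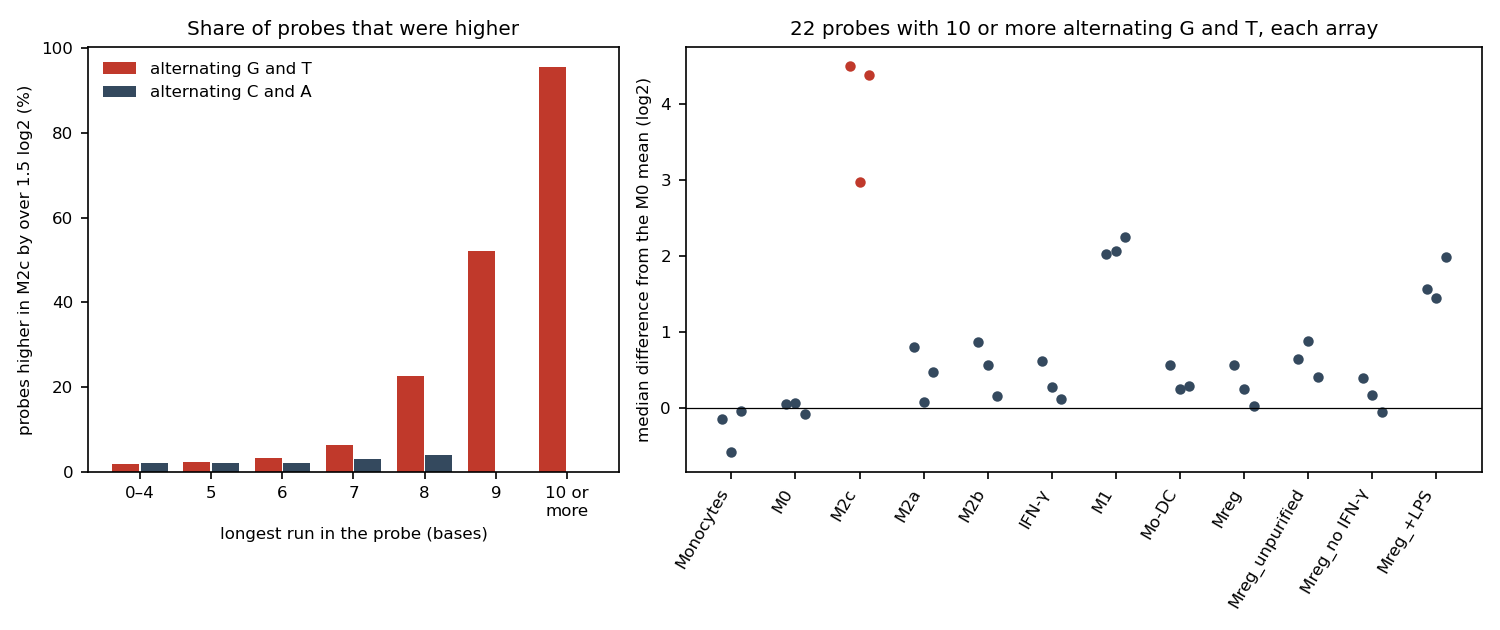
Left, the share of probes higher by more than 1.5 log2 with dexamethasone (y axis, percent) by the length of the longest run of alternating G and T, with runs of alternating C and A for comparison; the share reaches 95.5% at 10 to 14 bases of G and T. Right, the median of the 22 probes with the longest G and T runs on each array, minus the M0 mean (log2); the 3 dexamethasone arrays lie at 4.50, 2.98 and 4.38.

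The receptor's own machinery changed in both directions. Of 17 measured genes of the receptor and its handling, 3 were higher (17.6%) and 4 lower (23.5%), beside 10.4% and 10% of all genes. This list and those below were chosen with earlier results of these data known. Their shares therefore describe the members and are no independent test of a theme. The median of the 17 was -0.30 log2. Fkbp5, the co-chaperone that lowers the receptor's affinity for hormone, read 3.70, 3.83 and 3.89 against -1.65, -2.09 and -2.06. The 2 groups were separated by more than 5 log2, a 53.4-fold rise (5.74 ± 0.36 log2, adjusted p = 8.2e-12). Its 3 probes gave 5.74, 5.39 and 5.76 log2. The probe used lies on chromosome 17 from 28127522 to 28127581 (mm8, minus strand).

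Nr3c1, the receptor itself, read 1.76, 1.55 and 1.55 against 2.06, 2.08 and 1.94. All treated arrays were lower, but the difference of -0.41 ± 0.15 log2 missed the threshold (adjusted p = 0.062). With the series number, which pairs the arrays, as a block it passed at the same size (adjusted p = 0.025), as it did with quantile normalization (-0.45), the authors' series table (-0.46), the mean of its probes (-0.60) and a fit of these 6 arrays alone (-0.41). Hsp90aa1, the inducible HSP90, fell by 0.91 (adjusted p = 5.8e-09), Hsp90ab1, its constitutive partner, by 0.36, and the co-chaperone Ptges3 by 0.34 on the log2 scale. Coactivators of nuclear receptors split: Ncoa1 rose 2.21-fold and Ncoa2 1.45-fold, while Ncoa3 was 1.40-fold lower. Ncoa2 lost its call under normexp (0.31 log2) and without M0 array 3 (0.47) or dexamethasone array 1 (0.49), and with normexp the 7 called genes of this list became 3.

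Transcription factors and signalling brakes known as glucocorticoid targets gave more rises than falls. Of 22 measured, 10 were higher (45.5%) and 4 lower (18.2%), beside 10.4% and 10% of all genes. The median was 0.37 log2, beside 0.03 over all genes. Ddit4, an inhibitor of mTORC1, read 6.68, 7.48 and 7.02 against 1.5, 1.98 and 1.23. Every treated array was more than 4 log2 above every control, and the rise was 44.9-fold (5.49 ± 0.29 log2, adjusted p = 2.8e-13). Tsc22d3, which encodes GILZ, a leucine zipper protein that binds NF-κB and AP-1, read 5.81, 5.71 and 5.89 against 2.54, 2.88 and 2.97. It rose 8.02-fold (adjusted p = 5.1e-10), with 3.00, 3.06 and 2.85 log2 on its 3 probes.

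Klf9, a Krüppel-like repressor, read 2.41, 2.53 and 2.27 against 0.14, -0.03 and -0.30, and rose 5.52-fold (adjusted p = 2.2e-06). Per1, the clock gene, read 2.91, 2.96 and 2.99 against 0.86, 0.74 and 0.78, and rose 4.46-fold (adjusted p = 1.1e-08). Neither gene had overlapping groups. Dusp1, the phosphatase that switches off p38 and JNK, read 3.93, 4.62 and 4.37 against 2.48, 2.72 and 2.64, a 3.24-fold rise (adjusted p = 1.8e-05). Nfkbia, the NF-κB inhibitor IκBα, rose 2.76-fold (adjusted p = 3.5e-05).

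Smaller rises were called for Cebpd (1.79-fold), Irak3, an inhibitor of Toll-like receptor signalling (1.51-fold), Cebpb (1.43-fold) and Foxo1 (1.34-fold). Sgk1, a kinase often raised by steroids, read 3.59, 3.45 and 3.47 against 3.38, 3.23 and 3.01. The groups did not overlap, but the difference of 0.29 ± 0.42 log2 did not pass (adjusted p = 0.72). The 4 that fell were Rgs2 (-1.5 log2), the cell cycle inhibitor Cdkn1c (-1.35), Tnfaip3, which encodes the NF-κB brake A20 (-1.15), and the repressor Bcl6 (-0.82).

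**Figure D3:**
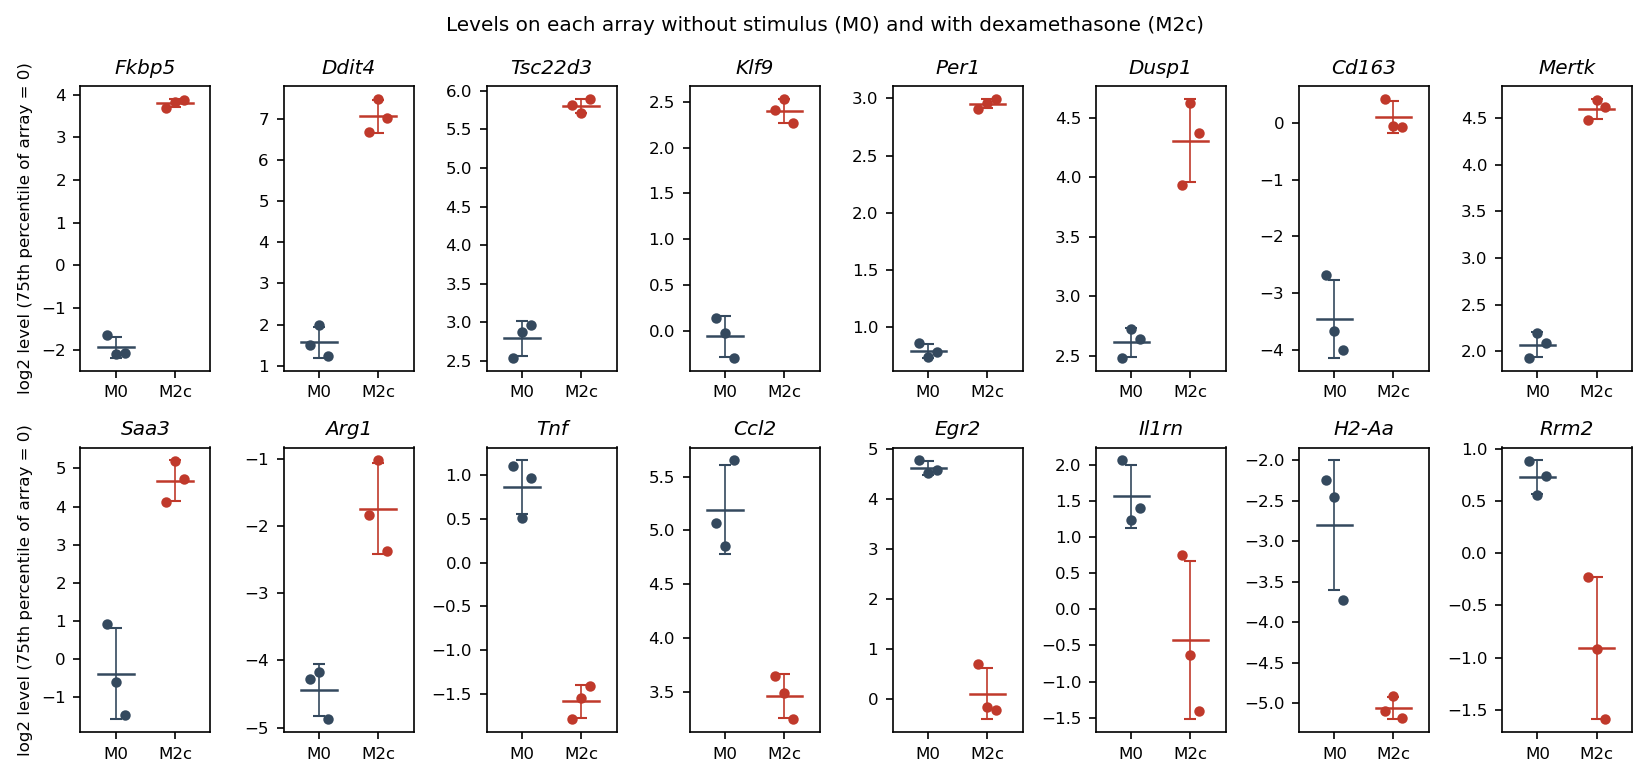
Level of 16 genes on each array (y axis, log2 relative to the 75th percentile of the array), with 3 points for no stimulus and 3 for dexamethasone per gene and bars for the mean and SD. Fkbp5, Ddit4, Tsc22d3, Klf9, Per1, Dusp1, Cd163, Mertk, Saa3 and Arg1 are higher with dexamethasone, and Tnf, Ccl2, Egr2, Il1rn, H2-Aa and Rrm2 are lower.

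The DNA element of the receptor was looked for in proximal promoters, 250 bases before to 50 after the start of each gene (RefSeq, GRCm38.p6). The loose form, GNACA and TGTNC with any 3 bases between, which is its own reverse complement, is in 156 of 32851 windows (0.475%). Among genes with a window, it is in 44 of 11553 tested (0.381%), in 2 of 418 that rose at least 2-fold (0.478%) and in 2 of 476 that fell as much (0.42%). The full palindrome, AGAACA and TGTTCT with any 3 bases between, is in 3 windows (0.00913%) and in none of the 418. Of the 10 risen transcription factors and brakes, 9 have a window and none holds the loose form. The match in each of the 2 risen genes is shown in capitals.

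Map3k6: gaatagggGCACAGGCTGTTCcggaagtgg
Slc10a6: cttccctaGAACACGATGTGCcactgtcga

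The Map3k6 stretch lies at chr4:133240629-133240658 on the plus strand and the Slc10a6 stretch at chr5:103629545-103629574 on the minus strand, with the match ending 169 and 151 bases before the start. Map3k6, a stress kinase, read 2.41, 2.75 and 2.51 against 0.78, 0.69 and 0.87 (3.41-fold, adjusted p = 1.2e-05). Slc10a6, a transporter of steroid sulfates, was at least 2.04-fold higher (adjusted p of the fit 0.0008). A match is a description of these letters, and such shares say nothing of sites outside the window.

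Among metabolic genes known to answer glucocorticoids in liver, muscle or fat, 5 of 18 were higher (27.8%) and 2 lower (11.1%). The shares over all genes were 10.4% and 10%, and the median of the list was 0.12 log2. Gpx3, a secreted glutathione peroxidase, read 2.80, 1.88 and 1.69 against -1.09, -2.16 and -2.05, a 14.8-fold rise (adjusted p = 5.8e-06). Array 1 of each group was the highest, and the groups stayed apart. Glul, glutamine synthetase, rose 4.33-fold (adjusted p = 2.2e-06), with 2.11, 2.18 and 2.21 log2 on its 3 probes. Lpin1, a phosphatidate phosphatase, rose 2.86-fold.

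Mt2, a metallothionein, rose 3.86-fold (adjusted p = 0.013). Its call was lost without M0 array 3 (1.78 log2), without dexamethasone array 2 (1.83) and on the arrays of a single scan day (1.98). Lcn2, the iron-binding lipocalin, read -2.04, -1.65 and -1.82 and was above background on 1 unstimulated array. Its fitted difference was 5.02 ± 0.95 log2 (adjusted p = 0.00034), and with normexp it was 0.96 with no call. Angptl4, an inhibitor of lipoprotein lipase, went the other way (-1.34 log2), a call lost without M0 array 2 (-1.24) or dexamethasone array 1 (-1.19) or 3 (-1.32). So did the stress gene Gadd45a (-0.85).

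Genes described as glucocorticoid-induced in macrophages gave the highest median of the glucocorticoid lists, 1.14 log2. Of 28 measured, 14 were higher and 4 lower (14.3%). The shares over all genes were 10.4% higher and 10% lower, so the falls were near the share over all genes. Cd163, the scavenger receptor for haemoglobin bound to haptoglobin, read 0.43, -0.04 and -0.07 against -2.68, -3.68 and -4.01. The groups were separated and the rise was 11.8-fold (3.56 ± 0.97 log2, adjusted p = 0.0088). On arrays 2 and 3 of each group, scanned on the same day, it was 3.79 log2 with an adjusted p of 0.089, and with normexp 2.09 log2, still called. Mertk, the kinase receptor that binds dying cells through bridging proteins, read 4.48, 4.69 and 4.62 against 1.93, 2.20 and 2.09 (5.77-fold, adjusted p = 0.00025).

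Saa3, an acute-phase serum amyloid, read 4.13, 5.19 and 4.72 against 0.90, -0.62 and -1.47, a 33.7-fold rise (adjusted p = 3.6e-05). The unstimulated arrays spread widely but stayed below the treated ones. F13a1, the coagulation factor XIII chain of monocytes and macrophages, rose 15.3-fold, and Thbs1, thrombospondin 1, 14.2-fold, with 3.83 to 3.96 log2 on 3 probes. Ms4a6b rose 6.15-fold, the scavenger receptor Marco 4.22-fold, the chemokine receptor Cxcr4 3.95-fold and the IL-4 receptor chain Il4ra 3.06-fold. Adora3, an adenosine receptor, rose 2.05-fold.

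Il1r2, the decoy receptor that captures interleukin 1, read -3.42, -1.26 and -1.40 and was above background on 1 unstimulated array. It differed by 4.86 ± 0.86 log2 (adjusted p = 0.00016), and by 3.91 on its second probe, but with normexp the difference was 1.09 with no call. Vsig4, a complement receptor of tissue macrophages, was at least 3.39-fold higher, and the normexp correction gave -0.01 log2. Fpr1 (6.01-fold) and Fpr2 (4.04-fold), receptors for formyl peptides, also rose, and both calls were lost on a single scan day (2.82 and 2.18 log2). Without M0 array 2 or 3 Fpr1 was 2.49 or 2.36 log2 and Fpr2 1.93 or 1.83, with no call, and Fpr2 also lost it without dexamethasone array 1 (1.92) or 3 (2.00). Fpr2 is a receptor for annexin A1.

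Several genes of this list did not follow its name. Anxa1, annexin A1 itself, fell by 1.00 on the log2 scale (adjusted p = 0.0036), from 7.19, 7.06 and 7.31 to 6.29, 6.13 and 6.14. Il1rn, the interleukin 1 receptor antagonist, fell by 1.99 (adjusted p = 0.015), and lost the call without M0 array 1 (-1.75) or without dexamethasone array 2 (-1.89) or 3 (-1.50). Tgfb1 and Lilrb4a fell by 0.39 and 0.84. Il10 read -1.91, -1.38 and -1.17 against -1.96, -1.07 and -1.18, with overlapping groups and a difference of -0.08 ± 0.55 log2 (adjusted p = 0.96). Mrc1, the mannose receptor, read 5.14, 5.17 and 5.50 against 4.02, 4.05 and 4.01, yet 1.24 ± 0.55 log2 missed the threshold (adjusted p = 0.12). It passed with normexp (1.41 log2, adjusted p = 0.047) and in a fit of the M2c and M0 arrays alone (adjusted p = 0.002).

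Inflammatory mediators were mixed. Of 38 measured cytokines and NF-κB targets, 5 were higher (13.2%) and 7 lower (18.4%), beside 10.4% and 10% of all genes. The median was -0.07 log2. Tnf read -1.79, -1.55 and -1.41 with dexamethasone and 1.1, 0.51 and 0.96 without. No treated array reached a control, and Tnf was 5.43-fold lower (-2.44 ± 0.34 log2, adjusted p = 6.9e-06). Mmp13, a collagenase, was 4.45-fold lower, Csf1, which encodes M-CSF, 3.37-fold, Cd40, a costimulatory receptor, 2.72-fold, and Traf1 1.64-fold.

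Birc3, an inhibitor of apoptosis, rose 3.90-fold (adjusted p = 5.9e-11), and 2.34 log2 on its second probe beside 1.96 on the first. Il18 rose 1.85-fold and Bcl3 1.77-fold. Vcam1, an adhesion molecule, differed by 5.23 ± 0.66 log2 (adjusted p = 1.7e-06), with 1 unstimulated array above background. Il1b read -5.86, -5.18 and -5.65 against -2.19, -4.28 and -4.88; the control arrays were all higher but spread over more than 2 log2 (-1.78 ± 0.76, adjusted p = 0.11). Il6 and Nos2 were below background in both groups, so no fold is given.

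Chemokines, which recruit monocytes and other leukocytes, gave more falls than rises. Of 24 chemokines, 5 were lower (20.8%) and 1 higher (4.17%), beside 10% and 10.4% of all genes. The median was -0.43 log2. Ccl2 read 3.64, 3.49 and 3.24 against 5.07, 4.85 and 5.65, with no overlap, a 3.33-fold fall (adjusted p = 0.00024). Ccl7 was 3.82-fold lower, Ccl4 2.85-fold and Cxcl14 4.59-fold. Ccl7 lost its call without M0 array 3 (-1.58 log2, adjusted p = 0.10) and narrowly without dexamethasone array 1 (-1.88, adjusted p = 0.051), and Cxcl14 without M0 array 1 (-1.77) or dexamethasone array 3 (-1.63). Cxcl10 was at least 8.71-fold lower (adjusted p = 0.003), and -1.39 log2 with no call under normexp. The chemokine that rose was Ccl24, an eosinophil attractant (8.77-fold, adjusted p = 0.0039), at 1.19 log2 with no call under normexp.

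Receptors for chemoattractants split evenly, 5 higher and 5 lower of 21 (23.8% each, beside 10.4% and 10% of all genes). Beside Fpr1, Fpr2 and Cxcr4, Gpr35 (2.89-fold) and Cxcr3 (2.87-fold) rose. Ccr3 and Ccr2 fell by 2.22 and 1.54 on the log2 scale, and Ptafr, the receptor for platelet-activating factor, by 0.74. Cx3cr1, the fractalkine receptor, differed by -2.57 log2 with 2 of 3 dexamethasone arrays above background, and its second probe was below background throughout.

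Toll-like receptors and the proteins that work with them rose more often than they fell, 8 (33.3%) against 2 (8.33%) of 24. The shares over all genes were 10.4% and 10%, and the median of the list was 0.33 log2. The 8 include the signalling proteins Irak3 and Irak4, which are not sensors. Tlr7, the endosomal sensor of single-stranded RNA, read 4.60, 4.68 and 4.62 against 2.91, 3.04 and 2.92 (3.20-fold, adjusted p = 3e-06). Its arrays differed by less than 0.2 log2 within each group. Lbp, which hands LPS to its receptor complex, rose 4.92-fold, Tlr2 2.81-fold, Tlr9 1.52-fold and Tlr6 1.37-fold. Tlr5, the flagellin receptor, differed by 3.81 log2, with 2 of 3 unstimulated arrays above background, and by 1.26 with normexp. Cd180, a relative of Tlr4, was 2.85-fold lower. Tlr4 itself (-0.12 log2, adjusted p = 0.76) and Cd14 (0.35, adjusted p = 0.59) did not pass.

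In the interleukin 1 and 18 system 4 of 17 genes were higher (23.5%) and 2 lower (11.8%), beside 10.4% and 10% of all genes. Il18bp, the secreted inhibitor of interleukin 18, read 2.03, 1.92 and 2.01 against -0.87, -0.60 and -0.57. Its 6.35-fold rise (adjusted p = 1.5e-08) was seen on both probes, at 2.67 and 2.81 log2. Il1r1, the signalling receptor, was at least 1.79-fold higher, but with normexp it came to -0.23 log2. Casp1, the interleukin-processing protease, was 1.32-fold lower.

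Interferon-stimulated genes were counted in 2 lists. Of 27 type I interferon genes, none was higher and 1 (3.70%), Ifit2, was lower (-1.13 log2, adjusted p = 0.049). The call was lost without M0 array 2 (-1.07) or 3 (-0.83), or dexamethasone array 1 (-0.75) or 2 (-1.16). Of 28 IFN-γ-induced genes, 2 were higher (7.14%) and 4 lower (14.3%), beside 10.4% and 10% of all genes, and with normexp 1 and 2. Socs3, a feedback inhibitor of cytokine receptors, rose 5.59-fold (adjusted p = 3.2e-05), and Gbp5, a guanylate-binding protein, 2.05-fold. Slamf8, a receptor of the SLAM family, read 0.80, -0.02 and 0.12 against 3.28, 2.67 and 2.93 (6.34-fold lower, adjusted p = 1.5e-07).

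Class II antigen presentation was lower in 3 of 12 genes (25.0%, beside 10% of all genes) and higher in none. H2-Ab1 read -2.28, -1.65 and -2.07 against 0.68, 0.36 and -0.51, 4.53-fold lower (adjusted p = 0.0026), with -2.04 to -2.20 log2 on 4 probes. H2-Aa, which encodes the partner chain, was 4.77-fold lower (adjusted p = 0.0026). Ciita, the transactivator that both need, was not above background on any dexamethasone array and was at least 4.15-fold lower (adjusted p = 0.00059). With normexp the count of 3 became 1, Ciita came to -1.24 log2 with no call, and H2-Aa came to -1.29 log2 with an adjusted p of 0.082. Cd74, the invariant chain, differed by -1.53 log2 without passing (adjusted p = 0.069).

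Molecules that stimulate or restrain T cells moved both ways, 5 higher and 5 lower of 24. That is 20.8% each, beside 10.4% and 10% of all genes. Entpd1 (CD39), an ectonucleotidase, rose 3.40-fold (adjusted p = 5.9e-08), Havcr2 (TIM-3) 2.32-fold and Vsir (VISTA) 2.02-fold. Cd274 (PD-L1) was 1.78-fold lower and Tnfsf9 1.82-fold, and Cd70 was at least 1.40-fold lower. Cd80 (-0.12 log2) and Cd86 (-0.25 log2) did not pass.

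Early response and AP-1 genes fell more often than they rose, 7 against 1 of 23. The shares were 30.4% and 4.35%, beside 10% and 10.4% of all genes. Beside Egr2, Atf3 fell by 1.23 (adjusted p = 1.7e-06), Maff by 1.62, Myc by 1.16 and Ier5 by 0.62 on the log2 scale. Fosl1 fell by 1.31, a call lost without dexamethasone array 3 (-0.99). The riser was Ier3 (2.17-fold). Fos (0.20 log2), Jun (0.11) and Junb (0.01, on the probe with no long run) did not pass. Of 23 MAPK phosphatases and suppressors of cytokine signals, 6 were higher (26.1%) and 4 lower (17.4%), beside 10.4% and 10% of all genes. Socs2 (4.47-fold) and Cish (3.20-fold), targets of STAT5, rose, though Socs2 was 0.41 log2 with no call under normexp and its second probe was below background throughout. By contrast Dusp4, a nuclear phosphatase of ERK, was 7.35-fold lower (adjusted p = 0.00091).

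Clock genes split, 4 higher and 4 lower of 20 (20.0% each, beside 10.4% and 10% of all genes). Beside Per1, Arntl (BMAL1) read 0.36, 0.32 and 0.81 against -0.73, -0.74 and -0.76 (2.36-fold, adjusted p = 2.2e-07), and Nfil3 rose 2.30-fold. Bhlhe40, a repressor in the clock and in macrophage cytokine control, read -1.50, -2.03 and -1.92 against 1.46, 1.23 and 0.97 (8.21-fold lower, adjusted p = 1.3e-08). Its relative Bhlhe41 was 2.49-fold lower. Nr1d1 differed by 2.00, 0.60 and 0.19 log2 on its 3 probes, which disagree in size, and with normexp the first gave 0.52 with no call. The 8 called clock genes became 5 with normexp.

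Among genes of efferocytosis, the uptake of dying cells, and scavenging, 10 of 35 were higher (28.6%) and 3 lower (8.57%). The shares over all genes were 10.4% and 10%, and the count of 10 includes the run probe of Itgb3. Without dexamethasone array 1 or array 2 the 13 called members became 8, and on a single scan day 7. Beside Mertk, Cd163, Marco and Thbs1, Cd300lf, a lipid-sensing receptor, rose 2.68-fold and Stab2, a hyaluronan scavenger, 2.46-fold. Itgav, the α partner of β3, was 2.01-fold lower. Axl, the related receptor kinase, differed by -1.39 log2 without passing (adjusted p = 0.11). Of 10 Fc receptors, 4 were higher and none lower: Fcgrt, which recycles IgG, by 3.91-fold, Fcgr4 by 2.39-fold, Fcgr3 by 2.22-fold and the inhibitory Fcgr2b by 3.40-fold. The call of Fcgr2b (adjusted p = 0.045) was lost whichever of the 6 arrays was left out, at 1.67 to 1.92 log2.

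Complement and coagulation genes gave 6 higher (19.4%) and 4 lower (12.9%) of 31, beside 10.4% and 10% of all genes. Thbd, thrombomodulin, rose 3.38-fold. Cd55, a complement inhibitor, was at least 4.56-fold higher, but 0.04 log2 under normexp. Plau, the urokinase, read -0.48, -1.74 and -1.91 against 2.07, 1.68 and 1.5, 8.73-fold lower (adjusted p = 8.1e-09). Its receptor Plaur was 3.93-fold lower and Procr, the protein C receptor, 5.92-fold lower. Of 32 matrix genes 5 were higher (15.6%) and 3 lower (9.38%), near the shares over all genes. Mmp8, neutrophil collagenase, rose 14.6-fold, Ecm1 4.32-fold and Mmp19 3.55-fold. Mmp12, macrophage elastase, read 3.06, 2.07 and 1.67 against 5.61, 5.31 and 5.54 (9.30-fold lower, adjusted p = 0.00032).

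Cell cycle genes were lower nearly throughout the list. Of 35 measured, 30 were lower (85.7%, beside 10% of all genes) and none higher, with a median of -1.09 log2. The 2 groups of arrays did not overlap in all 35, beside 43.3% of all genes. Pcna, the replication clamp, read 6.01, 5.79 and 5.56 against 7.19, 7.14 and 7.06 (2.53-fold lower, adjusted p = 7.6e-08). Rrm2, a subunit of ribonucleotide reductase, read -0.23, -0.92 and -1.59 against 0.88, 0.56 and 0.74 (3.11-fold lower, adjusted p = 0.0026). The treated arrays were more spread out than the controls in Rrm2, with array 1 nearest to them.

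Genes of each phase were among the 30. Ccnd1 (2.89-fold lower) and Ccne1 (2.30-fold) encode cyclins of the entry to S phase, Mcm5 (2.77-fold) a replication helicase subunit, Foxm1 (2.81-fold) a mitotic transcription factor and Bub1 (2.76-fold) a spindle checkpoint kinase. Mki67, the proliferation marker, was 2.19-fold lower. The call of Ccnd2 (2.97-fold) was lost whichever of the 6 arrays was left out, at -1.66 to -1.41 log2. Plk1 (-0.91 log2, adjusted p = 0.065), Cdc20 (-0.64), Mcm6 (-1.01), E2f1 (-0.13) and Ccnd3 (0.18) did not pass.

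Genes of cholesterol synthesis were lower in 13 of 27 (48.1%) and higher in 1 (3.7%), beside 10% and 10.4% of all genes. The median was -0.51 log2. Sqle, squalene epoxidase, read 0.50, 0.22 and 0.17 against 2.04, 1.88 and 1.90 (3.13-fold lower, adjusted p = 7.5e-06). Cyp51, a sterol demethylase, was 2.32-fold lower and Idi1, an isomerase of the early pathway, 2.06-fold. Srebf2, the transcription factor of the pathway, was 1.51-fold lower, and its escort Scap was 1.21-fold higher.

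Glycolysis and hypoxia genes were lower in 14 of 29 (48.3%, beside 10% of all genes) and higher in none, with a median of -0.53 log2. Pdk1, which holds pyruvate out of mitochondria, read 0.56, 0.06 and -0.25 against 2.03, 1.49 and 1.38 (2.84-fold lower, adjusted p = 0.00058). Slc2a1, the glucose transporter, was 2.34-fold lower, Eno2 2.43-fold, Vegfa 2.18-fold and Ldha 1.6-fold. The count of 14 became 8 with normexp, and 6 without M0 array 1 or without dexamethasone array 3. Hif1a differed by -0.07 log2 without passing (adjusted p = 0.91).

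Antioxidant genes of the NRF2 programme gave 4 higher (14.8%) and 5 lower (18.5%) of 27, beside 10.4% and 10% of all genes. Prdx1, a peroxiredoxin, read 6.40, 6.26 and 6.25 against 8.04, 7.84 and 7.74 (2.97-fold lower, adjusted p = 6.3e-08). Txnrd1 was 2.49-fold, Srxn1 2.31-fold and Nqo1 2.22-fold lower, while Mgst1 rose 2.04-fold. Of 27 iron, heme and metal genes 5 were higher (18.5%) and 4 lower (14.8%). Tfrc, the transferrin receptor, was 2.05-fold lower. Spic, the transcription factor of haem-recycling macrophages, rose 4.08-fold, a call (adjusted p = 0.036) lost whichever of the 6 arrays was left out, at 1.83 to 2.19 log2. Without dexamethasone array 2 the 9 called genes of this list became 4. Hmox1, haem oxygenase, differed by 0.27 log2 without passing.

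**Figure D4:**
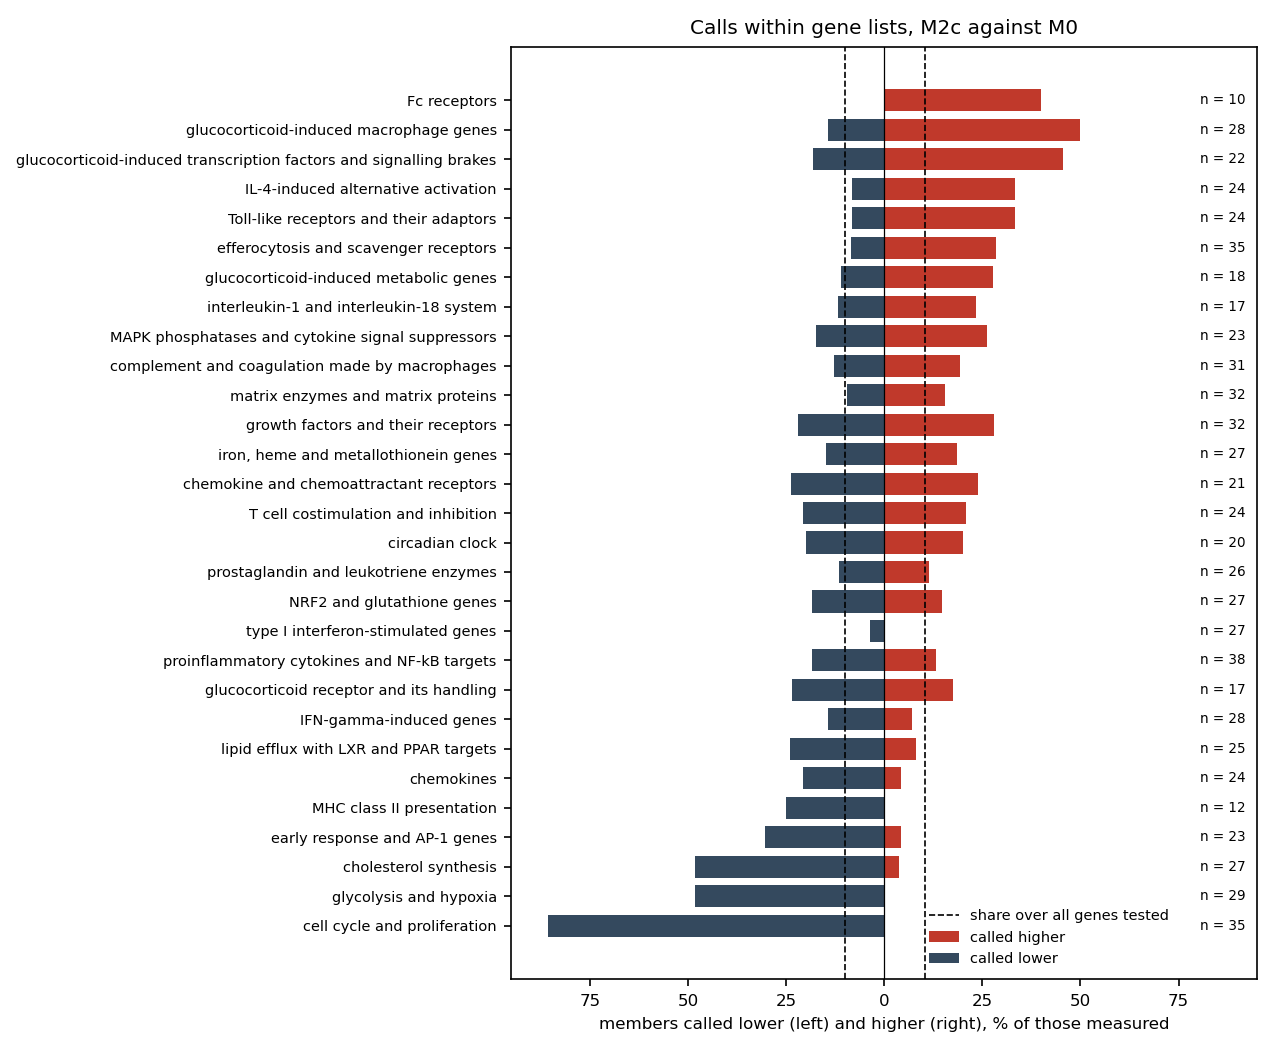
Share of the measured members of each gene list called higher or lower with dexamethasone (x axis, percent), with dashed lines at the shares over all genes, 10.4% and 10%. Cell cycle genes reach 30 of 35 lower, and genes described as glucocorticoid-induced in macrophages 14 of 28 higher.

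Macrophage markers were present on all 6 arrays: the 14 measured ones summed to 1990 to 2150 with dexamethasone and 1810 to 2000 without, as linear signal relative to the 75th percentile, and none was below background throughout. Of the 14, 4 were higher (28.6%, beside 10.4% of all genes), among them Csf1r, the M-CSF receptor (1.71-fold), and Itgam (1.75-fold). Without M0 array 3 or dexamethasone array 1 there were 2. Markers of Ly6C-high monocytes, the cells the cultures began with, summed to 453 to 496 against 250 to 270. Of 11 measured, 5 were higher (45.5%) and 1 lower (9.09%), beside 10.4% and 10% of all genes. Hp, haptoglobin, read 6.26, 6.35 and 6.05 against 0.92, 0.65 and 0.88 (42.4-fold higher, adjusted p = 1e-05). In the same list Ccr2, the receptor by which such monocytes leave the marrow, was 2.91-fold lower, and Ly6c1 (0.97 log2) did not pass.

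Markers of neutrophils, which the sort should remove as Ly6G-positive cells, and of neutrophil precursors together summed to 28.6 to 31.2 against 7.34 to 8.66. Of 14 measured, 3 were higher (21.4%, beside 10.4% of all genes), namely Mmp8, Lcn2 and Retnlg, and none lower. Elane and Cxcr2 were below background on all 6 arrays, S100a9 (-1.13 log2), Camp (-1.72) and Ltf (-1.85) did not pass, and Ly6g was not tested. Hp, Chil3 and F13a1 are members of the monocyte list, and Mmp8 and Lcn2 of the neutrophil list, so the sums hold their rises. Saa3, Fpr1 and Fpr2, which are in neither list, rose too. The part of such cells in these results was not tested. Dendritic cell markers summed to 82.8 to 93.1 against 115 to 138, with Cd209a, Clec9a and Ccr7 below background. T and NK markers summed to at most 1.17 on any of the 6 arrays.

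IL-4 and dexamethasone give macrophages that are both called M2, so their arrays were set side by side. Dexamethasone and IL-4 macrophages differed in 6228 genes (35.4%), 3032 higher with dexamethasone (17.2%) and 3196 lower (18.2%). This comparison and those below use the same dexamethasone arrays as the comparison with M0, so they are not independent of it. Of 24 IL-4-induced genes, 8 were higher (33.3%) and 2 lower (8.33%) with dexamethasone than without stimulus. The shares over all genes in that comparison were 10.4% and 10%. Arg1, arginase 1, read -1.83, -1.02 and -2.37 with dexamethasone, 6.22, 6.05 and 5.70 with IL-4, and -4.27, -4.17 and -4.88 in M0. The 3 groups were ordered without overlap: dexamethasone differed from M0 by 2.70 log2 (adjusted p = 1.7e-05) and from IL-4 by -7.73 log2 (adjusted p = 9.9e-14). With normexp the first of these was 0.82 log2 and lost its call.

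Chil3 (Ym1), a chitinase-like lectin, read 5.98, 6.25 and 6.12 with dexamethasone against 0.52, 1.33 and 1.65 in M0 (31-fold, adjusted p = 0.0054; 4.70 log2 with no call on a single scan day), and averaged 8.72 ± 0.17 (SD, n = 3) with IL-4. The difference from IL-4 did not pass (-2.60 ± 1.26 log2, adjusted p = 0.11). That SE was estimated over all 36 arrays and is wide beside the SD of the IL-4 arrays, so equal levels are not implied. Mrc1 differed between the 2 stimuli by -0.16 ± 0.55 log2 (adjusted p = 0.85). Mgl2, a lectin, was at least 494-fold lower with dexamethasone than with IL-4, Retnla, a resistin-like protein, at least 864-fold, and Cdh1, E-cadherin, at least 90.6-fold. All 3 were below background on every dexamethasone array.

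Egr2 separated the 2 stimuli further, at 0.11 ± 0.51 with dexamethasone and 6.39 ± 0.14 with IL-4 (SD, n = 3), on either side of the 4.62 of M0. Mmp12 showed the same order, at 2.27 ± 0.72, 6.66 ± 0.31 and 5.49 ± 0.16. Ocstamp, a fusion protein of osteoclasts and giant cells, differed by -9.08 log2 between dexamethasone and IL-4, and by -3.22 between dexamethasone and M0, where its second probe gave -0.95 (adjusted p = 0.081). On the other side, Jaml was 8.47 log2 higher with dexamethasone than with IL-4, Hp 7.57 and Fpr1 6.63, and Mrap at least 75.2-fold higher. Ddx4, a germ-cell helicase, differed by -7.30 log2 between dexamethasone and IL-4, while dexamethasone and M0 differed by -0.37 log2 (adjusted p = 0.53).

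Dexamethasone and IFN-γ macrophages, hybridized on the same slides, differed in 6214 genes (35.3%), 3238 higher (18.4%) and 2976 lower (16.9%) with dexamethasone. Of the 28 IFN-γ-induced genes, 27 were lower with dexamethasone and none higher, with a median of -4.21 log2 beside 0.06 over all genes. The list holds genes that IFN-γ raises, so this direction was set by the choice of list and comparison. Against M0 the median of the same 28 was 0.02 log2. There 2 were higher (7.14%) and 4 lower (14.3%), beside 10.4% and 10% of all genes. Ciita, the class II transactivator, was at least 1110-fold lower. The guanylate-binding proteins Gbp4 and Gbp2b were lower by at least 1920-fold and 523-fold, the serpin Serpina3f by at least 865-fold. For the chemokine Cxcl9 the bound was 361-fold and for Ch25h, which makes an antiviral oxysterol, 467-fold. Clec9a, a lectin of dendritic cells, was also among the 8 genes furthest below the IFN-γ arrays, at least 333-fold lower. Higher with dexamethasone were Cbr2, a carbonyl reductase (8.38 log2), Jaml (8.24), Sult1a1 (8.10) and Hp (7.70), and Lyve1, a hyaluronan receptor, by at least 25.4-fold. Nfkbia, Dusp1 and Tsc22d3 were 0.93, 2.75 and 3.32 log2 higher with dexamethasone than with IFN-γ.

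**Figure D5:**
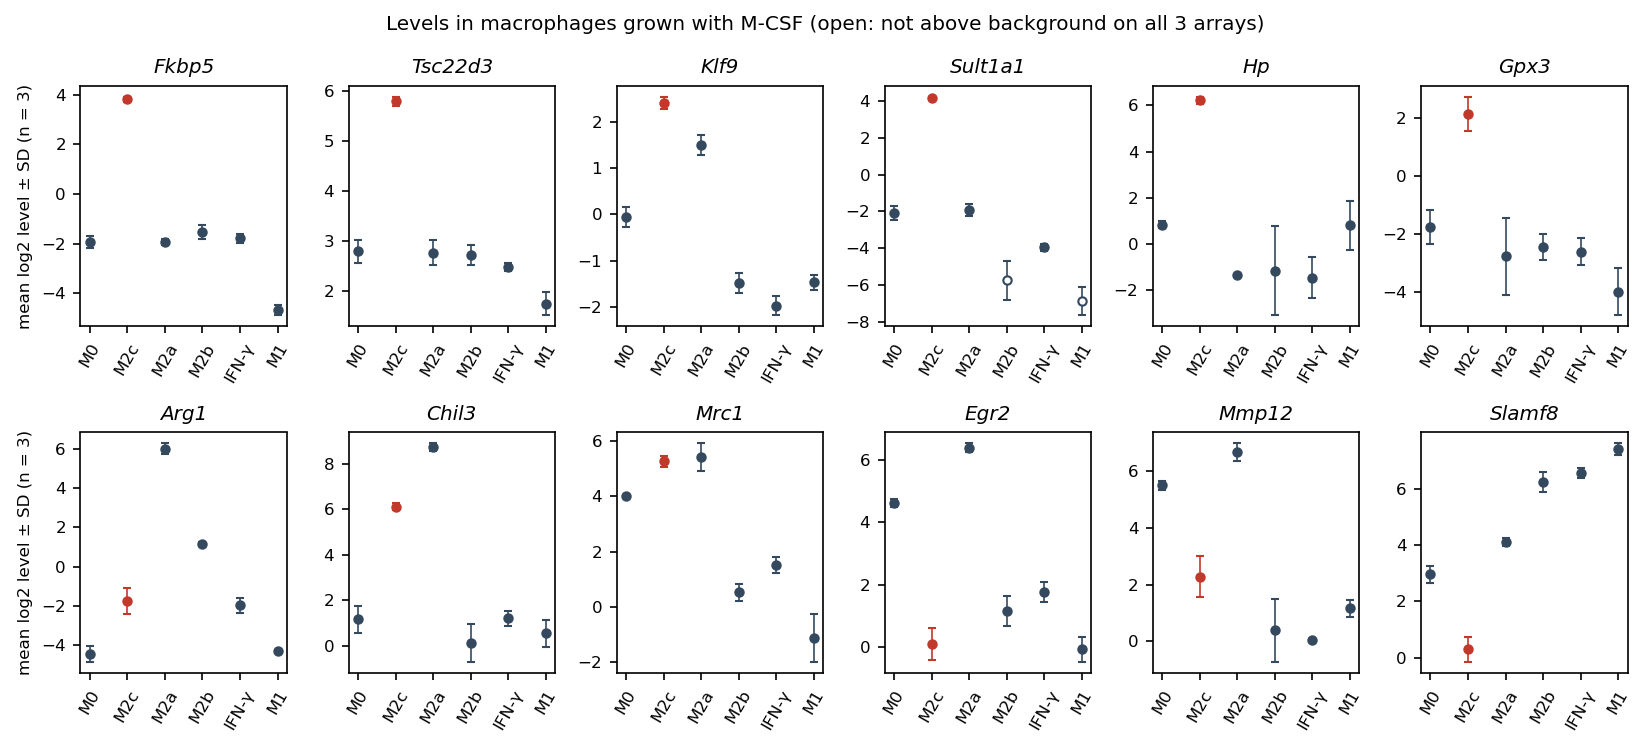
Mean level of 12 genes in the 6 groups of M-CSF macrophages (y axis, log2 relative to the 75th percentile of the array; bars, SD over 3 arrays; open points, not above background on all 3). Fkbp5, Tsc22d3, Sult1a1, Hp and Gpx3 are highest with dexamethasone, while Arg1, Egr2 and Mmp12 are highest with IL-4 and Slamf8 is lowest with dexamethasone.

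Dexamethasone macrophages differed from each of the 5 other M-CSF groups in the same direction, at the threshold in every comparison, in 1257 genes (7.14%), 851 higher (4.83%) and 406 lower (2.31%). Without probes holding a G and T run of 7 or more there were 1198, 796 higher and 402 lower. Fkbp5 averaged 3.81 ± 0.10 with dexamethasone, and between -4.68 ± 0.20 in M1 and -1.52 ± 0.27 in M2b elsewhere (SD, n = 3). The smallest of its 5 differences was 5.33 log2. Tsc22d3 averaged 5.80 ± 0.09 against 1.75 ± 0.23 (M1) to 2.80 ± 0.23 (M0), and Ddit4 7.06 ± 0.40 against 1.45 ± 0.13 (M1) to 1.99 ± 0.28 (M2b). Per1 averaged 2.95 ± 0.04, with M1 next at 1.75 ± 0.08. Of these 5 genes, Klf9 came nearest to another group: 2.40 ± 0.13 against 1.49 ± 0.21 with IL-4, a difference of 0.91 ± 0.32 log2 (adjusted p = 0.026). Foxo1 of the same list was also set apart, by 0.43 log2 at the least.

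The genes furthest above the other groups by the smallest of the 5 fitted differences included Jaml (8.24 log2), Sult1a1 (6.07) and Hp (5.40), beside Adamts20 and Hoxd13 with their run probes. The fit also placed Lyve1 and Mrap there, but Lyve1 was below background on every array of the other 5 groups and Mrap on all but 2, so their sizes are not ranked. Lyve1 was at least 24.4-fold higher than in M0, with 1.71 log2 under normexp. Among the genes furthest below, Slamf8 (2.66 log2 lower at the least) and Ocstamp (3.22) were above background in all 6 groups. Hcar2, the receptor for hydroxybutyrate and niacin, Ciita, Mast4, Tmem178 and Spib, an Ets factor, were below background on all dexamethasone arrays and Tnip3 on 2 of 3. Against M0 the bound for Hcar2 was 6.09-fold lower, with no call under normexp (-1.29 log2, adjusted p = 0.062), and that for Spib 2.29-fold. Not every gene raised by dexamethasone was set apart. Dusp1 averaged 4.31 ± 0.35 with dexamethasone and 4.73 ± 0.12 in M1, Nfkbia 5.58 ± 0.15 and 8.07 ± 0.05, Mertk 4.60 ± 0.11 and 4.63 ± 0.20, and Saa3 4.68 ± 0.53 and 7.35 ± 0.87 (SD, n = 3). In these 4 genes the mean of M1, which received IFN-γ with LPS, was the higher.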

How the data were processed

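Total RNA was labelled with Cy3 and hybridized to single-colour Agilent arrays, per the labels' protocols. Each deposited scanner file gave, per the file headers, a processed intensity per spot after the scanner program's background correction, with flags for outliers and for signal well above background. The series table deposited by the authors held log2 values of the same arrays and was used as an alternative. Values here were log2 of the processed intensity minus the 75th percentile of the array. Flagged outlier spots were left out (51 to 323 an array), and spots of a probe were averaged. Probes flagged above background on fewer than 3 of the 36 arrays were dropped, which left 26478 of 41174, and each of 17605 genes was read from its brightest probe. Names came from RefSeq by accession (24487 probes) or symbol (8627), or were those of the file (8060), and can be old; Zbtb16, which the rule below names, had no probe under that name.

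limma 3.58.1 in R 4.3.3 fitted a mean per group to all 36 arrays (lmFit, eBayes), with Benjamini-Hochberg adjustment within a comparison and a threshold of 0.05. A gene set apart had to pass in each of 5 contrasts in the same direction. On simulated data of 17605 genes for dexamethasone against no stimulus, the fit recovered 70% of changes of 1 log2 and 87% of changes of 2 log2, with 7 false calls. The simulated noise was independent between arrays, without slide or series effects, so these figures do not measure error in the real arrays. Only 3 arrays a group limit the precision. An exact permutation test of 3 against 3 cannot go below 0.1, so none is given.

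The named genes were the 12 largest rises and falls without overlap, up to 4 called members of each gene list, a fixed set of 19 genes and, in the other comparisons, the 8 largest in each direction; a few more members are named for their roles; some genes chosen this way were left out of the text. Members and lists were chosen with earlier results of these data known. The labels number 3 series across groups. Deviations from the group means correlated between same-numbered arrays of M2c and M0 at 0.32, 0.17 and 0.28, so the numbers pair the arrays. Array 1 of each group was also scanned on another day than arrays 2 and 3, so series 1 and scan day cannot be told apart. The main fit has no term for the number, and the fit with the number as a block is given with the alternatives. Probe coordinates are mm8 as deposited; promoters are RefSeq GRCm38.p6. Figures were drawn with matplotlib 3.10.9 (Python 3.11.15).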

Additional observations from a re-analysis of the deposited data

How the results depend on the processing

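Dexamethasone against no stimulus gave between 2583 genes (the arrays of a single scan day) and 4405 (only the compared groups in the fit), beside 3597. With the series number as a block, 4334 genes were called, 3595 of the 3597 among them in the same direction, and of the named genes it changed 1 call, that of Nr3c1, to a pass. Slide as a random block gave 3619, quantile normalization 3933 and 3957 came from the authors' series table. Leaving out an array gave 2691 to 3077 genes, 5037 to 5877 against IL-4, 5131 to 5503 against IFN-γ and 978 to 1256 set apart. The normexp correction, which moved the median of all genes from 0.03 to -0.19 log2, gave 2839 genes against M0 and 777 set apart (586 higher, 191 lower) in place of 1257; the cause was not tested. Of 124 called named genes, 82 had a value under all 17 alternatives and kept call and direction, and 8 more kept both wherever they had a value. Those 8 had none under the filter of 18 arrays, and 3 of them (Adamts20, Cyp4x1 and Hoxd13) also none without run probes. The call was lost under at least 1 alternative in 31, and 3 turned. Of 19 named genes with no call, 6 passed under at least 1. Those 3 were Itgb3, at -2.34 log2 without run probes, Il1r1, at -0.23 with normexp, and Vsig4, at -0.01 with normexp. Values of genes with no call turned in Retnla (-0.64 normexp, 0.00 quantile and series table, -0.10 to 0.13 without an array), Gbp2b (-0.68 normexp, -0.09 to 0.13 without an array), Serpina3g (-0.46 normexp, -0.23 to 0.60 without an array), Il10 (-0.36 to 0.13 without an array), Ddx4 (0.06 on a single scan day, -0.58 to 0.04 without an array), Il6 (0.11, and -0.45 to 0.09 likewise) and Cxcl9 (-0.96 to 0.15 without an array). For genes near background, signal over background limits what can be said.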

Other observations

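Growth factors and their receptors gave 9 higher (28.1%) and 7 lower (21.9%) of 32 with dexamethasone against no stimulus. The shares over all genes were 10.4% and 10%, and the median of the list was 0.16 log2. Il6ra, the interleukin 6 receptor, read 1.47, 1.84 and 1.66 against -0.49, -0.05 and -0.78 (4.27-fold higher, adjusted p = 9.7e-08), and gave 2.13 log2 on its second probe beside 2.09. Ifngr1, a chain of the IFN-γ receptor, rose 2.05-fold and Il10ra, of the interleukin 10 receptor, 1.81-fold. Among the growth factors that fell, Hbegf, a ligand of the EGF receptor, read -3.04, -3.79 and -4.15 against -0.31, -0.80 and -0.62 (8.47-fold lower, adjusted p = 8.4e-06), and Pdgfb was 4.86-fold lower. Vegfb was 4.06-fold lower on its bright probe, while its second probe gave -0.07 log2. Hgf rose 1.73-fold.

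Lipid genes beyond cholesterol synthesis gave 2 higher (8.0%) and 6 lower (24.0%) of 25, beside 10.4% and 10% of all genes. The 2 were the apolipoproteins Apoc1, at 0.85, 0.67 and 0.34 against -2.73, -2.54 and -3.24 (11-fold, adjusted p = 9.8e-09), and Apoc2 (7.00-fold, adjusted p = 5.5e-07), with no overlap in Apoc1. Pparg, a lipid-sensing nuclear receptor, was 2.41-fold lower, Fasn, fatty acid synthase, 1.64-fold, and Scd1, a desaturase, at least 1.54-fold, a call lost with normexp (-0.78 log2) and without M0 array 3 (-1.88). Of 26 prostaglandin and leukotriene genes 3 were higher and 3 lower (11.5% each, near the shares over all genes). Pla2g7, the enzyme that degrades platelet-activating factor, read 5.47, 5.50 and 5.70 against 3.26, 3.52 and 3.63 (4.25-fold higher, adjusted p = 4.3e-08), and Pla2g4a, which frees arachidonic acid, was 1.91-fold lower.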
